A study of Sus scrofa with 16 samples.

Results

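The members described here were the entries for miR-122 and for the family of miR-192, miR-194 and miR-215 in small RNA libraries of sow ovary. Entries of the count table were taken where the identifier named miR-122, miR-192, miR-194 (a or b) or miR-215, which gave 4 of 1940 entries (ssc-miR-122, ssc-miR-194a, ssc-miR-194b-5p and ssc-miR-215). The table lists 216 known and 1724 predicted miRNAs, and no miR-192 entry was among those analysed here. The family was chosen by its measured values: its levels across the groups and in single libraries of these same samples were known beforehand, and the differences between groups of the members are therefore given as a description. Where a count of members past the study's threshold is given, it states where they fell in a fit of all entries and is not evidence about the members.

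Whole ovaries came from 16 Canadian Large White sows, with 1 small RNA library per sow and 4 sows in each group. The groups were LH (high fecundity, luteal phase, day 14 after estrus), LL (low fecundity, luteal phase, day 14), FH (high fecundity, follicular phase, day 20 of the cycle) and FL (low fecundity, follicular phase, day 20). Each sow gave 1 phase only, so phase was compared between animals. Libraries held from 8998496 counts (FL2) to 37194836 counts (FH4). Levels are given as CPM (counts scaled to a common library size) after TMM scaling, a scaling that sets libraries to a common composition, on 1 scale for all 16 libraries. In whole ovary, fewer cells of a type and less RNA per cell cannot be told apart.

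miR-122 is the dominant miRNA of hepatocytes, where it takes part in lipid and cholesterol metabolism, and it circulates in blood plasma. miR-192, miR-215 and miR-194 are abundant in intestinal, liver and kidney epithelium. miR-192 and miR-215 share their seed, the bases that pair with target mRNAs, while miR-194 has another one, so that members made from the same transcript need not have the same targets. miR-192, miR-194 and miR-215 are also known to respond to the tumour suppressor p53, and slow the cell cycle in epithelial cells. In the RefSeq gene order of the pig (assembly Sscrofa11.1), MIR194A lies next to MIR192, between ATG2A and EHD1. MIR215 and MIR194B lie next to each other, both within the span of IARS2 (the mitochondrial isoleucyl-tRNA synthetase). MIR122 stands apart from both pairs, before NEDD4L. The mature miR-194 sequences of the a and b genes are nearly the same, and how reads were divided between them is not given in the sources used here, so the split of miR-194a and miR-194b-5p is uncertain.

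For each member, the 3 other entries with the most alike pattern were found by Pearson's r of log2(CPM + 1) over the 16 libraries, among 414 distinct non-member entries that passed the filter on low counts. Of these, 7 were predicted miRNAs, and their mature sequences are shown because the patterns of the members were compared with them. Sequences are from the study's table of predicted miRNAs, written 5′ to 3′ with the seed (bases 2 to 8) in capitals.
NovelmiRNA-1515: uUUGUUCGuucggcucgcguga
NovelmiRNA-388: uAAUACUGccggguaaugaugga
NovelmiRNA-991: uUGGCUCUgcgaggucggcuca
NovelmiRNA-1146: aUAAUACAugguuaaccucuuu
NovelmiRNA-151: aUGGGUCUgacggagcagccgc
NovelmiRNA-1355: gUGGAUUCacucaacuuggguu
NovelmiRNA-489: gCUCUGUGaugaaccccc
The 7 seeds differed from each other. The first and second of them were the closest to miR-194a, and by general knowledge, not checked against a miRNA table, they read as miR-375 (a miRNA of endocrine and epithelial cells) and miR-200c (an epithelial miRNA of the same family as miR-429).

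The 4 members were minor miRNAs in most of these ovaries. Together they took between 0.00252% (LL2) and 0.0401% (LH4) of the counts in 13 libraries, against 0.114% in FL4, 0.195% in FL2 and 0.316% in LL4. miR-122 ranked 46 among the 216 known miRNAs in FL2, its highest library, and 179 in LL4. miR-194a ranked 41 in LL4 and between 56 and 156 in the other libraries.

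miR-122 was highest in the follicular ovaries of low fecundity sows. In FL it stood at 30.1, 1363, 277 and 113 CPM (replicates 1 to 4). In FH it stood at 33.4, 3.27, 7.47 and 41.5 CPM. Of the FL libraries, 3 lay above every FH library, while FL1 lay within the FH range. In LH the values were 4.77, 79.0, 99.5 and 6.96 CPM, a high pair and a low pair. In LL they were 28.1, 1.81, 2.22 and 1.76 CPM, so LL1 stood above the other 3 low fecundity luteal libraries, which lay within 1.76 to 2.22 CPM. The highest library held 776 times the level of the lowest, and FL2 alone held 54.1% of all miR-122 counts. By group median the order was FL (195 CPM), LH (43.0 CPM), FH (20.5 CPM) and LL (2.01 CPM). Neighbours in this order overlapped in every case, and the mean ± SD (n = 4) was 446 ± 620 CPM for FL, 47.6 ± 48.9 CPM for LH, 21.4 ± 18.9 CPM for FH and 8.48 ± 13.1 CPM for LL.

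miR-194a, the most abundant member of its family here, was nearly level in FH and uneven in the other groups. In FH it stood at 49.6, 59.1, 53.7 and 56.8 CPM, a mean of 54.8 ± 4.14 (SD, n = 4). In FL it stood at 31.8, 317, 58.6 and 761 CPM, with FL2 and FL4 far above the FH range, FL1 below it and FL3 within it. In LH the values were 52.7, 28.5, 35.4 and 394 CPM, and only LH4 was high. In LL they were 18.6, 13.5, 20.8 and 1655 CPM. LL4 was thus the highest of all 16 libraries and the other 3 LL libraries were the lowest 3, below every library of LH, FH and FL.

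miR-215, which shares its seed with miR-192, followed miR-194a at a lower level. In LL it stood at 2.33, 1.50, 2.29 and 446 CPM, and in LH at 16.2, 3.73, 7.85 and 26.0 CPM. In FH it stood at 3.38, 3.39, 4.51 and 5.27 CPM, and in FL at 3.64, 29.0, 5.60 and 48.1 CPM. As for miR-194a, LL1 to LL3 were the lowest 3 libraries and LL4 the highest. LL4 held 82.4% of all miR-215 counts, and its level was 9.28 times that of FL4, the next library.

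miR-194b-5p, encoded next to miR-215, was close to the detection limit except in LL4 and, at a lower level, LH1 and LH4. In LL it stood at 0, 1.60, 1.55 and 570.3 CPM, and in LH at 14.9, 0, 1.17 and 11.7 CPM. In FH it stood at 1.34, 1.81, 1.62 and 0.872 CPM (16 to 24 counts), and in FL at 0, 2.83, 0.665 and 5.37 CPM. LL4 held 95.4% of its counts, 38.2 times the level of LH1, the second highest library. The 3 libraries without a count (LH2, LL1 and FL1) allow up to 0.140, 0.101 and 0.163 CPM at a floor of 3 counts per library, which covers counting error only. A 0 in this table need not mean that the miRNA was absent: miR-142-5p, a leukocyte miRNA, was at 0 in 6 libraries, all LH libraries among them, and between 1489 and 9079 counts in the other 10.

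**Figure D1:**
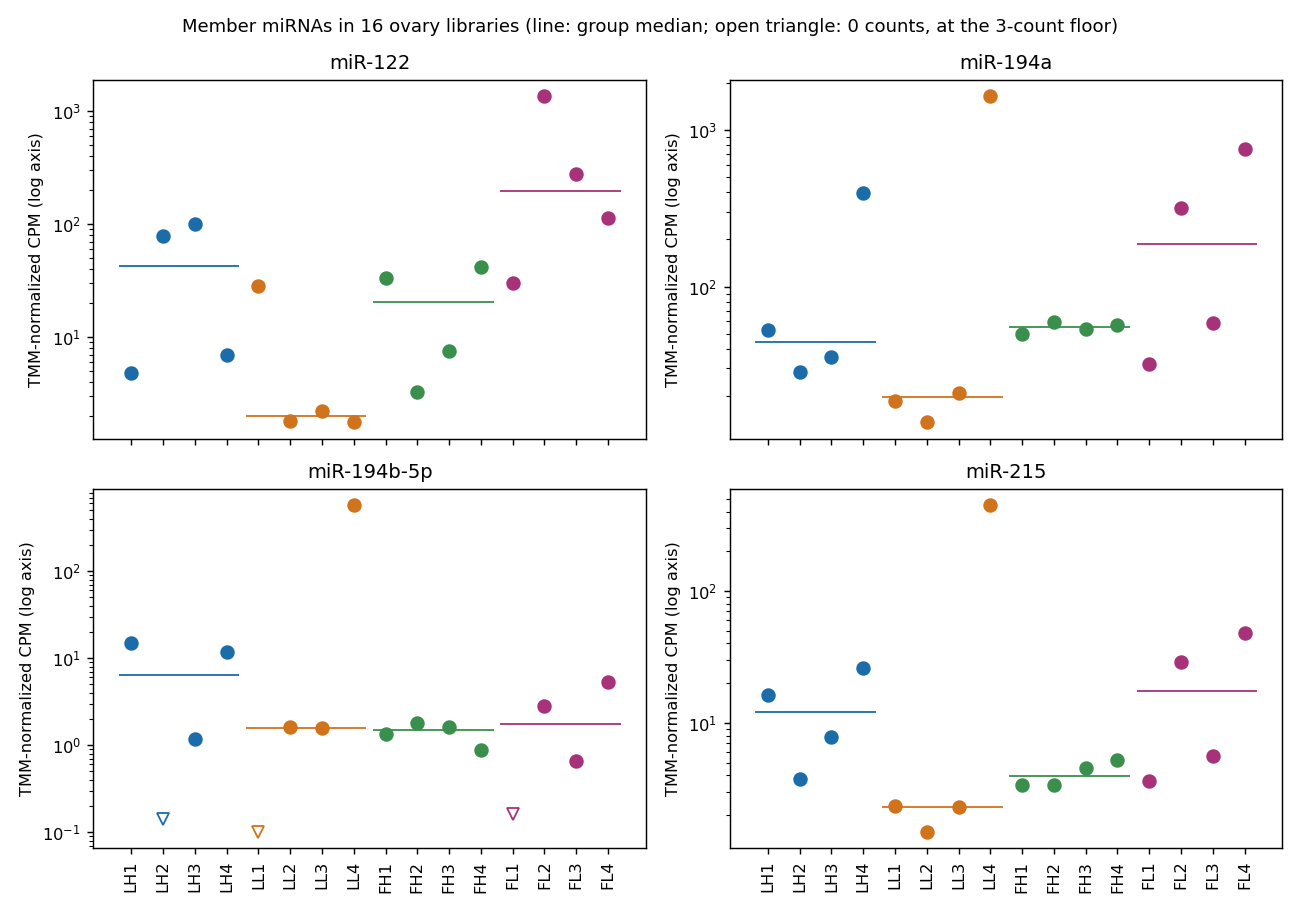
TMM-normalized CPM (log axis) of the 4 members in each of the 16 libraries on the horizontal axis, coloured by group, with a line at each group's median and open triangles for libraries with 0 counts, drawn at the 3-count floor. LL4 is the highest library for miR-194a (1655 CPM), miR-194b-5p (570.3 CPM) and miR-215 (446 CPM) and among the lowest for miR-122 (1.76 CPM), which is highest in FL2 (1363 CPM).

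The single luteal library LL4 thus stood apart for miR-194a, miR-194b-5p and miR-215 and not for miR-122. Over 418 distinct entries that passed the filter on low counts, LL4 was the highest library by at least 2 times the next one for 3 entries, and these 3 were miR-194b-5p (38.2 times), miR-215 (9.28 times) and miR-194a (2.17 times). FL2 stood apart in the same way for 4 entries, with miR-122 (4.92 times) among them, and FL4 for 16 entries, none of them a member. The members were chosen with these single-library values known, and each of these libraries is 1 sow, so no library offers a check of another.

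The 3 miR-194 and miR-215 members varied together across libraries, and miR-122 did not rise with them. On the log2(CPM + 1) scale over 16 libraries, r was 0.94 between miR-194a and miR-215 (Spearman's rho 0.83), 0.89 between miR-194b-5p and miR-215 (rho 0.58), and 0.77 between miR-194a and miR-194b-5p (rho 0.66). Without LL4 these values of r were 0.92, 0.71 and 0.61. Between miR-122 and miR-194a r was 0.12, and between miR-122 and miR-215 it was 0.03, or 0.42 and 0.44 without LL4. Between miR-122 and miR-194b-5p r was -0.39 (rho -0.38), or -0.23 without LL4. These correlations are a description of 16 libraries that differ in group and depth, among members that were chosen together.

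**Figure D2:**
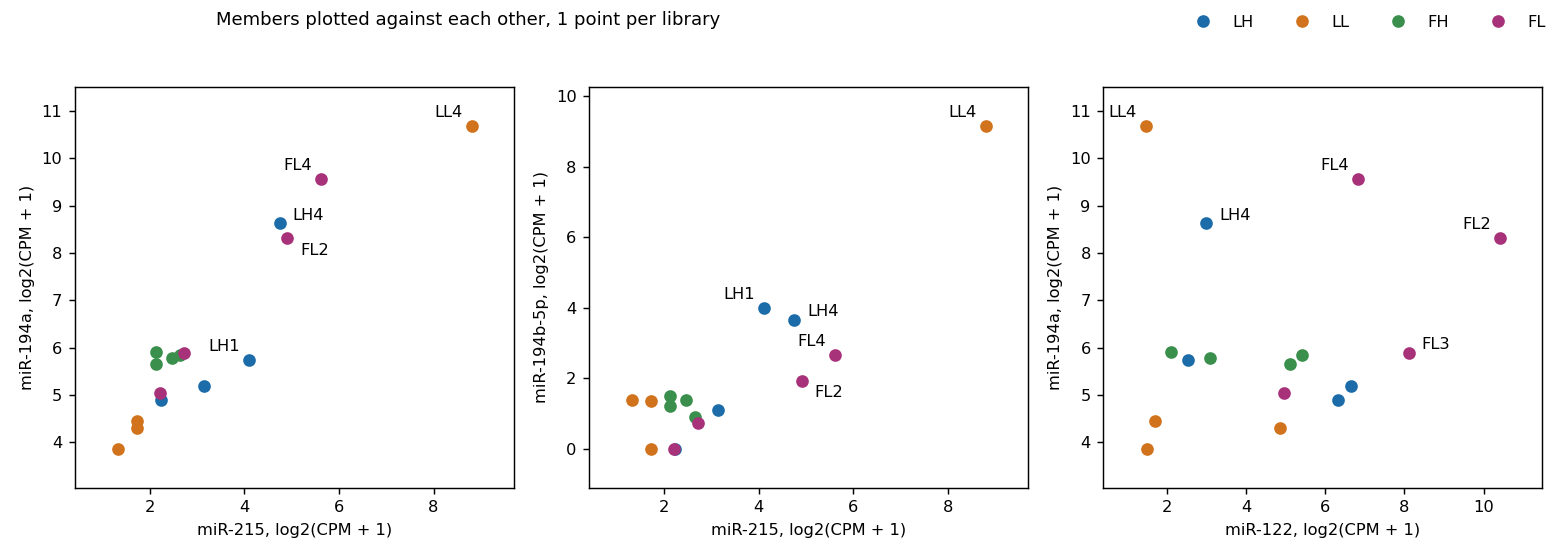
Pairs of members plotted against each other, both axes on the log2(CPM + 1) scale, 1 point per library coloured by group. LL4 lies at the upper end of the miR-194a and miR-215 plot (r = 0.94) and of the miR-194b-5p and miR-215 plot, whereas in the miR-194a and miR-122 plot (r = 0.12) LL4 lies at the upper left and FL2 farthest to the right.

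The make-up of the miR-194 and miR-215 counts differed between libraries beyond counting error, even among libraries in which the members were high. In LL4 miR-194b-5p made up 25.6% of the miR-194a and miR-194b-5p counts (exact 95% binomial interval 25.3 to 26.0%), and in LH1 22.1% (19.6 to 24.7%). In LH4 its share was 2.88% (2.54 to 3.24%), in FL2 0.885% (0.593 to 1.27%) and in FL4 0.70% (0.567 to 0.855%). The high luteal library LL4 and the moderate one LH1 thus had a larger share of the b form than the high libraries LH4, FL2 and FL4. The FH libraries lay between 1.51% and 2.96%.

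The share of miR-215 was also larger in LL4 and LH1 than in LH4, FL2 and FL4, but it did not divide all libraries alike. miR-215 made up 21.2% of the miR-194a and miR-215 counts in LL4 (20.9 to 21.6%), 23.6% in LH1 (21.1 to 26.2%) and 18.1% in LH3 (15.4 to 21.1%), where the share of miR-194b-5p above was only 3.20% (1.97 to 4.90%). In LL2 miR-215 made up 9.97%, beside a miR-194b-5p share of 10.6%. In LH4 the share was 6.18% (5.70 to 6.69%), in FL4 5.94% (5.56 to 6.34%) and in FL2 8.40% (7.51 to 9.36%). The ratio of miR-194a to miR-215 counts ranged from 3.24 (LH1) and 3.71 (LL4) to 17.5 (FH2), with a median of 6.08 over the LH libraries, 8.51 over LL, 13.3 over FH and 10.7 over FL. The 2 genes next to each other, miR-194b-5p and miR-215, had count ratios of 1.28 in LL4, 1.07 in LL2, 0.919 in LH1, 0.677 in LL3 and 0.449 in LH4, against 0.112 in FL4 and 0.0973 in FL2. This ratio did not divide the phases, as it was 0.149 in LH3 and 0 in LH2 and LL1. In FH it lay between 0.166 (FH4) and 0.533 (FH2), and it was 0 in FL1 and 0.119 in FL3. PCR copies are not independent molecules, so the intervals cover counting error only, and reads that fit both miR-194 entries may have been placed with either.

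**Figure D3:**
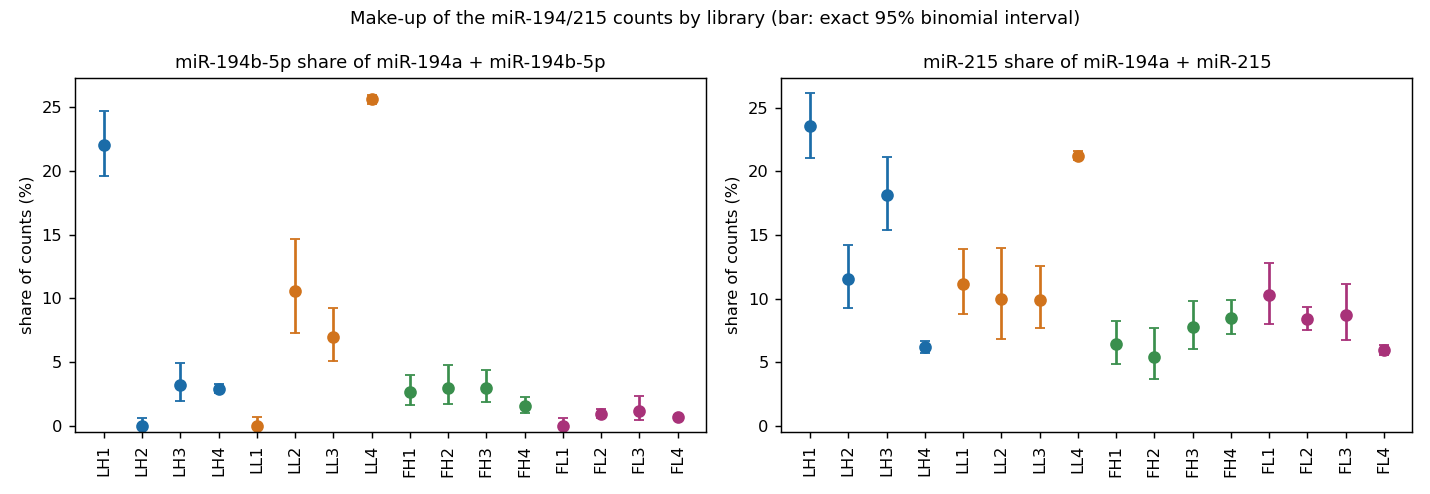
Share of counts in percent (vertical axis) by library (horizontal axis, coloured by group), for miR-194b-5p within miR-194a plus miR-194b-5p and for miR-215 within miR-194a plus miR-215; bars are exact 95% binomial intervals. LL4 (25.6% and 21.2%) and LH1 (22.1% and 23.6%) lie above LH4, FL2 and FL4 in both plots.

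The entries most like miR-194a were NovelmiRNA-1515 (r = 0.85), miR-429 (r = 0.84), a miRNA of the epithelial miR-200 family, and NovelmiRNA-388 (r = 0.73). NovelmiRNA-1515 stood at 144 CPM in LH4, 24.8 in LL4, 186 in FL2 and 711 in FL4, and between 1.17 and 3.39 CPM in the other 12 libraries. miR-429 stood at 103 CPM in LH4, 18.7 in LL4, 42.5 in FL2 and 341 in FL4, and at 10.6 CPM or less elsewhere. LH4, FL2 and FL4 were thus high for all of these, and LL4 was above the remaining libraries but below those 3, whereas for miR-194a it was the highest. Without LL4, r between miR-194a and NovelmiRNA-1515 was 0.95, and between miR-194a and miR-429 it was 0.94. By Spearman's rho 2 of the 3 entries stayed among the 3 most alike. Without the 2 libraries farthest from the median of miR-194a (LL4 and FL4), only NovelmiRNA-1515 stayed. There r was 0.92 for NovelmiRNA-1515 and 0.90 for miR-429.

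The entries most like miR-215 were again NovelmiRNA-1515 (r = 0.70) and miR-429 (r = 0.70), followed by NovelmiRNA-991 (r = 0.65), which was at 0 in 10 libraries. For miR-194b-5p the most alike were NovelmiRNA-1146 (r = 0.66), NovelmiRNA-151 (r = 0.61, with counts identical to those of another predicted entry) and NovelmiRNA-1355 (r = 0.55). These 3 had at most 190, 28 and 64 counts in a library, and by Spearman's rho none of the 3 stayed among the most alike, so they carry little weight. For miR-122 the most alike were miR-320 (r = 0.82), NovelmiRNA-489 (r = 0.77, at most 31 counts) and miR-769-5p (r = 0.76). miR-320 was abundant in every library and stood at 1173, 3684, 3121 and 3064 CPM in FL, where FL2 to FL4 were its 3 highest libraries as they were for miR-122. All these values of r are the highest of 414 for each member over 16 libraries and are given as a description. The choice depended on the measure. For miR-215, 1 of the 3 stayed by Spearman's rho, and 1 without the 2 libraries farthest from its median. For miR-122, 2 of the 3 stayed by Spearman's rho, but only 1 (miR-769-5p) once each group's mean was taken off. In that last case r with miR-320 was 0.65.

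The libraries that were high for miR-194a and miR-215 also differed in miRNAs of other cell types. The epithelium list (miR-34c, miR-429, miR-205, miR-182 and miR-183) summed to 21828 CPM in LH4, 16083 in FL4 and 7510 in FL2, and to between 145 and 1118 CPM in the other 13 libraries. miR-34c, a miRNA of ciliated epithelium that also responds to p53, took most of this, at 21379 CPM in LH4, 15224 in FL4 and 7335 in FL2. In LL4 the epithelium list summed to 383 CPM and miR-34c stood at 31.7 CPM, the level of the other LL libraries (18.3 to 40.7 CPM), so LL4 was not high in the sum or in miR-34c. miR-429 was raised in LL4, at 18.7 CPM against 0.946 to 1.03 CPM in the other LL libraries, as were NovelmiRNA-1515 (24.8 against 1.29 to 1.55 CPM) and NovelmiRNA-388 (69.6 against 8.07 to 17.1 CPM). Most of the sum in LL4 was miR-182, at 231 CPM against 298 to 738 CPM in the other LL libraries. How far epithelium in the piece of tissue bears on the level of miR-194a and miR-215 was not tested.

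Among the liver miRNAs other than the members, miR-885-5p stood at 43.1 CPM in LH4, 25.5 in FL2 and 61.8 in FL4, and at 1.59 CPM or less in the other 13 libraries, with 0 counts in LH2 and LH3. It was at 0.570 CPM in FL3 and 1.10 CPM in LL4, where miR-122 and the miR-194 and miR-215 members, respectively, were high. miR-148a-5p and miR-193a-5p were present in every library and did not follow miR-885-5p. In FL (replicates 1 to 4) miR-148a-5p stood at 53300, 8315, 15575 and 17953 CPM, lowest in FL2. miR-193a-5p stood at 85.3, 204, 212 and 133 CPM in FL, highest in FL3 and FL2. Of the erythrocyte miRNAs, miR-144 and miR-486 together ranged from 44.9 to 128 CPM in FL, 32.1 to 70.0 in FH, 53.3 to 112 in LL and 36.4 to 186 in LH. Their sum was 128 CPM in FL2 and 44.9 CPM in FL3, the 2 libraries highest in miR-122, so it was not raised in both. The part of blood or liver RNA in the miR-122 level was not tested.

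**Figure D4:**
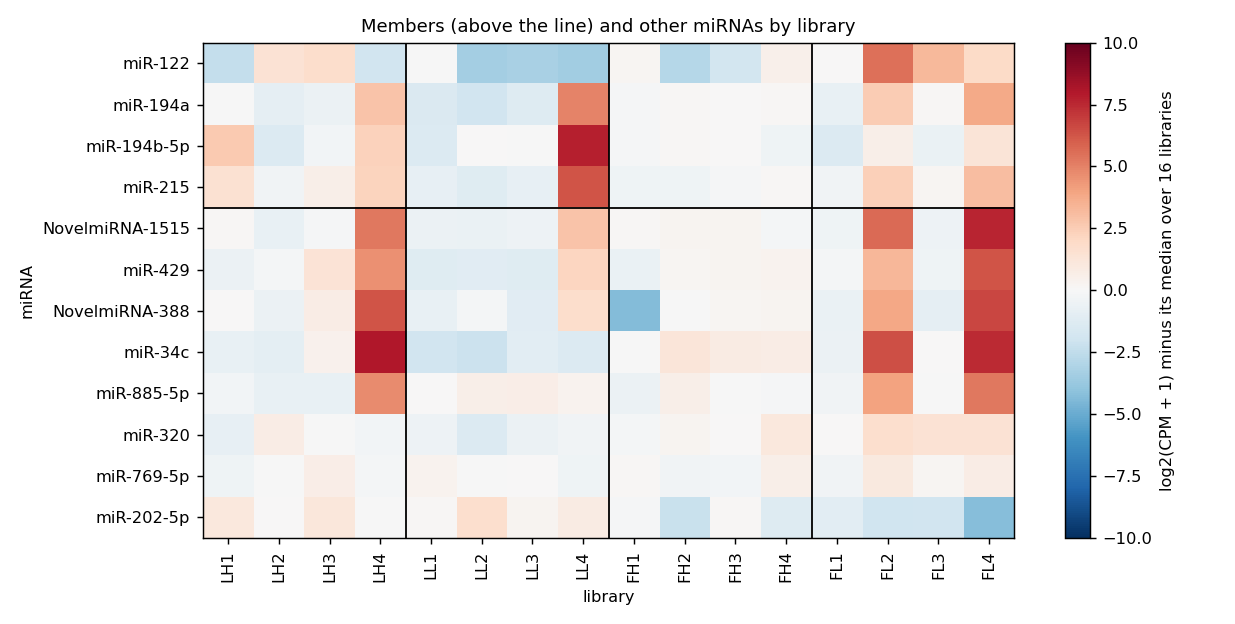
Level of the 4 members (above the line) and 8 other miRNAs (below it) in each library, as log2(CPM + 1) minus that miRNA's median over the 16 libraries (colour), with vertical lines between LH, LL, FH and FL. LH4, FL2 and FL4 are high for miR-194a, miR-215, miR-429, miR-34c and miR-885-5p, LL4 is high for the miR-194 and miR-215 members and raised for miR-429, NovelmiRNA-1515 and NovelmiRNA-388 but not for miR-34c or miR-885-5p, and FL3 is high for miR-122 alone among the members.

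In the other lists the labelled tissue was present. The gonad miRNA miR-202-5p held between 1141 counts (FL4) and 74522 counts (LL2), and its level was 64.5 CPM in FL4 against 302 to 596 CPM in the other FL libraries. miR-383, another granulosa miRNA, held at most 104 counts, in FL4. It stood at 5.88 CPM there, against 0.285 to 0.682 CPM in the other FL libraries. miR-224, also of the gonad list, was at 4.86 CPM in FL4 against 1.80 to 4.23 CPM in the other FL libraries. Neither shared the low level of miR-202-5p in FL4. The leukocyte list summed to between 827 and 2994 CPM, and the muscle list to between 449 and 4256 CPM.

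In follicular ovaries, 3 of the 4 members were higher in low than in high fecundity sows at the study's threshold (P below 0.05 before adjustment, with log2 fold changes of 1 or more in size). The log2 fold change (FL over FH, edgeR, ± SE) was 4.35 ± 1.33 for miR-122, 2.22 ± 0.87 for miR-194a, 2.23 ± 0.77 for miR-215 and 0.44 ± 1.23 for miR-194b-5p. All 4 members passed the filter on low counts in this and every other comparison. Of 307 entries fitted, 6.19% passed this threshold in either direction and 5.54% were higher in FL. None of the members had an adjusted p under 0.05, a call made for 0.651% of the entries, and none separated the groups without overlap, as 2.61% of the entries did. The members were picked in part from this contrast, so nothing is read from their share. Leaving out FL2 gave 2.66 for miR-122, and leaving out FL4 gave 1.20 for miR-194a and 1.54 for miR-215. Without either FL2 or FL4, the 2 libraries with the high miR-34c of this group, miR-122 was at 2.81 ± 1.16, miR-215 at 0.18 ± 0.46 and miR-194a at -0.28 ± 0.31, with no member past the threshold. With the sow's parity as a covariate miR-122 was at 2.37 ± 1.73 and no member passed, and with the share of reads kept by cleaning it was at 1.97 ± 0.97 and only miR-194b-5p passed, as lower in FL (-3.89 ± 1.42).

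In luteal ovaries, the direction of the miR-194 and miR-215 members turned without LL4 and also with the sow's parity in the fit. The log2 fold change (LL over LH) was 1.66 ± 1.73 for miR-194a, 3.02 ± 1.89 for miR-215 and 4.31 ± 2.85 for miR-194b-5p with all libraries, and -2.87 ± 1.09, -2.74 ± 0.85 and -2.69 ± 2.30 without LL4. With parity as a covariate the values were -7.80 ± 3.95, -6.89 ± 6.91 and -7.09 ± 15.7, with none past the threshold. The remaining LL libraries stood at 17.7 ± 3.75 CPM for miR-194a and 2.04 ± 0.47 CPM for miR-215 (SD, n = 3), below every LH library. miR-122 had a log2 fold change of -2.39 ± 1.37, -4.69 ± 1.34 without LL1 and -0.29 ± 2.66 with parity as a covariate. With all libraries 0 of 4 members passed the threshold, against 13.0% of 362 entries, and 0 had an adjusted p under 0.05, against 0.829%. Without LL4, miR-194a and miR-215 passed it as lower in LL, and without LL1 miR-122 did. No member separated the groups without overlap, as 15.7% of the entries did.

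Between the phases in high fecundity sows, every member was on average lower in FH than in LH, with wide errors. The log2 fold change (FH over LH) was -1.15 ± 1.33 for miR-122, -1.22 ± 1.44 for miR-194a, -1.70 ± 1.49 for miR-215 and -2.30 ± 2.22 for miR-194b-5p. For miR-194a this rested on LH4, without which the value was 0.50. None of the 4 passed the threshold, against 12.8% of 445 entries, none had an adjusted p under 0.05, against 0.0%, and none separated the groups, against 8.99%.

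Between the phases in low fecundity sows, miR-122 was higher and miR-194b-5p lower in the follicular phase at the same threshold. The log2 fold change (FL over LL) was 5.71 ± 1.61 for miR-122 and -6.01 ± 2.63 for miR-194b-5p. For miR-194a it was -0.55 ± 1.43 and for miR-215 -2.39 ± 1.52. The threshold was passed by 30.1% of 445 entries, with 16.4% higher and 13.7% lower in FL, so that 2 of 4 members is read against a high background. miR-122 was the 1 member with an adjusted p under 0.05, a call made for 15.5% of the entries. It was also the 1 member whose groups did not overlap, with LL at 28.1 CPM or less and FL at 30.1 CPM or more, as for 22.9% of the entries. Without LL4 the value was 3.96 ± 1.17 for miR-194a, 3.32 ± 0.96 for miR-215 and 0.96 ± 1.98 for miR-194b-5p, and the first 2 then passed the threshold as higher in FL. With DESeq2 in place of edgeR miR-122 passed, while for miR-194b-5p the fold change was -5.93 ± 2.02 and DESeq2 returned no P. Without LL4, FL2 and FL4 no member passed it, and miR-122 stood at 3.60 ± 1.67.

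The difference between fecundity groups was set against the phase in 1 model of all 16 libraries, as the log2 difference FL over FH minus that of LL over LH. It was 6.86 ± 2.04 for miR-122, 0.67 ± 2.01 for miR-194a, -0.69 ± 2.05 for miR-215 and -3.71 ± 3.10 for miR-194b-5p. miR-122 was the 1 member past the threshold, against 13.3% of 445 entries in either direction and 9.21% higher. None had an adjusted p under 0.05, as 0.0% of the entries had. miR-122 was on average lower in LL than in LH and higher in FL than in FH, and the interaction lay between 5.28 and 8.94 when each library was left out in turn. Without LL4 it was 5.15 ± 1.47 for miR-194a and 4.98 ± 1.25 for miR-215, past the threshold for both. Without LH4, LL4, FL2 and FL4 it was 0.78 ± 0.64 for miR-194a and 2.29 ± 1.16 for miR-215, neither past the threshold. miR-122 was then at 5.20 ± 2.07 and passed. The comparisons share groups of libraries, so their values are set side by side and were not correlated.

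**Figure D5:**
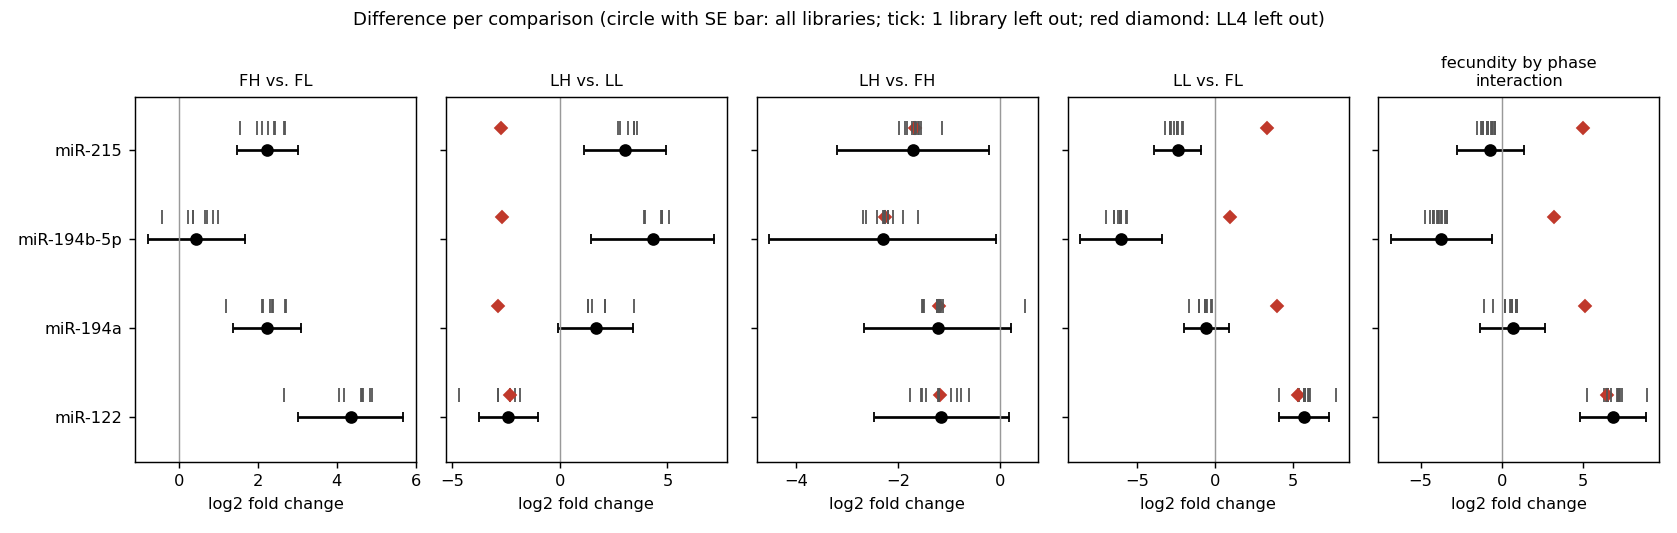
Log2 fold change (horizontal axis) of each member (vertical axis) in the 5 comparisons, second group over first. Circles with bars are the estimates from all libraries ± SE, ticks are the estimates with 1 library left out, and red diamonds those without LL4, which move miR-215 from 3.02 to -2.74 in LH vs. LL and from -2.39 to 3.32 in LL vs. FL.

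Other miRNAs known to respond to p53, as miR-192, miR-194 and miR-215 do, were miR-34c, miR-107, miR-143-3p, miR-145-5p, miR-15a and miR-16, and all 6 were fitted in every comparison. In FH vs. FL, 1 of the 6 passed the threshold (6.19% of all entries did), miR-34c at a log2 fold change of 5.12 ± 1.68. In LH vs. LL miR-107 was higher and miR-34c lower (-7.63 ± 2.41) in LL, and the other 4 did not pass (13.0% of all entries passed). In LH vs. FH miR-145-5p was higher and miR-34c lower in FH, again 2 of 6 (12.8% of all entries). By median miR-34c was higher in FH (143 CPM) than in LH (82.2 CPM), where only LH4 was high. In LL vs. FL, 3 were higher in FL (miR-34c, miR-143-3p and miR-145-5p) and miR-107 was lower (30.1% of all entries passed). In the interaction, miR-34c and miR-145-5p passed as higher and miR-107 as lower (13.3% of all entries passed). The median log2 fold change of the list was -0.47 in FH vs. FL, against 0.12 over all entries fitted, and 0.73 in LL vs. FL, against -0.13. miR-34c was highest in the same libraries LH4, FL2 and FL4 as above, and LL4 was not high for it.

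Of the epithelium list, miR-34c and miR-429 (4.46 ± 1.55) were higher in FL than in FH, and 0 of 5 were lower (6.19% of all entries passed). Only FL2 and FL4 were high for miR-34c and miR-429, while FL1 and FL3 lay within or below the FH range. miR-34c alone passed in LH vs. LL, as lower in LL (13.0% of all entries passed). In LL vs. FL, miR-205, miR-34c and miR-429 were higher and miR-182 and miR-183 lower in FL, so the list did not move as 1 group. There 30.1% of all entries passed. In LH vs. FH miR-34c, miR-182 and miR-183 were lower in FH (12.8% of all entries passed). For miR-34c only LH4 was high in LH, and the median was 82.2 CPM in LH against 143 CPM in FH. Of the 3 other liver miRNAs, miR-148a-5p was lower in LL than in LH (-1.43 ± 0.50). miR-193a-5p was higher in FL than in LL (1.27 ± 0.42). Neither of these 2 passed in FH vs. FL, where miR-122 did. The third, miR-885-5p, was not fitted in FH vs. FL. Its level was 25.5 CPM in FL2 and 61.8 CPM in FL4, but 0.326 CPM in FL1 and 0.570 CPM in FL3. Its FH values were 1.47 CPM or less. miR-885-5p passed in the interaction of fecundity and phase (8.15 ± 3.10), with LH4, FL2 and FL4 as its 3 high libraries. Both erythrocyte miRNAs stayed short of the threshold in all 5 comparisons. These lists were set with results of these libraries known, and their counts describe them.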

How the data were processed

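Ovary RNA was made into small RNA libraries with the NEBNext kit, 1 per sow. Per the study's methods the authors trimmed reads, mapped them to Sscrofa10.2 with Bowtie2 (2.1.0 in the submitters' processing notes) and predicted further miRNAs with miRDeep; how reads were shared between similar miRNAs is not given in the sources used here. The deposited table holds raw counts for 1940 entries, per the file headers, and DESeq2 is named in the processing notes. Groups came from the sample titles.

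Counts of all entries were fitted with the edgeR (4.0.16, R 4.3.3) quasi-likelihood test after TMM scaling and a filter on low counts (count minimum 10, total at least 15), with Benjamini-Hochberg adjusted p over all entries fitted. LH vs. LL and FH vs. FL used their 8 libraries, and the other comparisons a model of all 16. The SE is the one implied by the test. The tests weigh differences between groups against the spread between sows. Scripts were tested on simulated data. Named entries are all members, the 3 most alike entries per member, and the marker lists. The members and lists were chosen with earlier results of these data known. Correlations used log2(CPM + 1), with Python 3.11.15 and scipy 1.17.1. Alternatives were DESeq2 (1.42.0), other scalings and filters, covariates (parity, clean read share), a replicate block and libraries left out. No mature sequence of a member was printed.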

Additional observations from a re-analysis of the deposited data

Results flagged for a closer look

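miR-194a in LL4 (1655 CPM), miR-194b-5p in LL4 (570.3 CPM) and miR-215 in LL4 (446 CPM) each lay farther from the other 3 LL libraries, on the log2(CPM + 1) scale, than Dixon's 95% critical value for 4 samples allows. miR-122 in LL1 (28.1 CPM) did so too. Chance flags about 1 in 20 of such sets of member and group, of which 16 were looked at. The members were chosen with their single-library values known, so these flags restate that choice and nothing is read from their number. miR-122 also had a fecundity difference that was not the same in both phases, with an interaction of 6.86 on the log2 scale. It passed the unadjusted threshold and not the adjusted one, and the member was chosen with this value known.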

How the results depend on the processing

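In FH vs. FL, the members past the threshold fell from 3 to 0 with the replicate block or with parity as covariate and to 1 with the clean read share as covariate or with all 16 libraries in 1 fit. Leaving out 1 library gave 1 to 3 (1, miR-122, without FH1, FL2 or FL4), and leaving out FL2 and FL4 gave 0. In LH vs. LL (0) the clean read share as covariate gave 1, leaving out 1 library 0 to 2, and leaving out LL4 and LH4 2. In LH vs. FH no alternative gave any. In LL vs. FL (2) the replicate block and the clean read share each gave 1 (miR-122), DESeq2 gave 1 (miR-122) and no P for miR-194b-5p, leaving out 1 library 1 to 3 (1 without FL1, FL2 or FL3, 3 without LL4), and leaving out LL4, FL2 and FL4 0. In the interaction (1) the replicate block gave 0 and leaving out 1 library 1 to 3 (3 without LL4). Leaving out LH4, LL4, FL2 and FL4 gave 1 (miR-122).

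Values that changed sign, with a call in at least 1 of the fits compared, were, in log2 fold change, miR-194b-5p in FH vs. FL with the clean read share (-3.89); miR-194a in FH vs. FL without FL2 and FL4 (-0.28); miR-194a and miR-215 in LH vs. LL without LL4 (-2.87 and -2.74) and without LL4 and LH4 (-1.19 and -2.21); miR-194a, miR-194b-5p and miR-215 in LL vs. FL without LL4 (3.96, 0.96 and 3.32); and miR-215 in the interaction without LL4 (4.98). With 1 library left out, log2 fold changes ran from -2.87 to 3.43 (miR-194a) and -2.74 to 3.58 (miR-215) in LH vs. LL, from -1.70 to 3.96 (miR-194a), -7.00 to 0.96 (miR-194b-5p) and -3.18 to 3.32 (miR-215) in LL vs. FL, and from -1.52 to 4.98 (miR-215) in the interaction. What turned the signs was not tested, either for the libraries left out or for the covariate. Of the members' other values, 421 moved by less than 1 SD (pooled within the groups compared), whatever their sign, and 29 moved further. Over the entries that passed the filter, same-numbered sows did not deviate together (r from -0.19 to 0.20). The main fits took no pairing by number. A pairing that bears on few miRNAs was not tested. Short of any call, the sign also turned in LH vs. LL with parity as covariate for miR-194a (-7.80), miR-194b-5p (-7.09) and miR-215 (-6.89). With the replicate block it turned there for miR-194a (-0.38) and miR-215 (-0.91). Such turns occurred in every comparison, and those given next are examples. In FH vs. FL miR-194b-5p turned with the replicate block (-0.64) and without FL2 and FL4 (-2.22). In LH vs. FH miR-194a turned without LH4 (0.50). In LL vs. FL miR-194a (1.16) and miR-215 (0.02) turned with the replicate block. In the interaction miR-215 turned with the replicate block (1.39) and miR-194b-5p without LL4 (3.22). DESeq2 returned no P for miR-194b-5p in any comparison but FH vs. FL, nor for miR-194a and miR-215 in LH vs. LL. Library size alone in place of TMM changed no call or direction of a member. TMM factors over all 16 libraries shifted group means by up to 0.62 in log2 (LH vs. LL). In the fits members moved further, as miR-122 in LH vs. LL (-2.39 to -1.57) and miR-194a in FH vs. FL (2.22 to 2.99). Depth limits miR-194b-5p most, with 7 to 42 counts in 9 libraries.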
